A study of Mus musculus with 6 samples.

Results

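Expression in the control mouse embryonic stem cell line KH2 was compared with expression in lines that carry a doxycycline-inducible Sox17, so as to describe differences between the lines that are there with and without the drug. The members were the autosomal genes that 2 or more of the 6 arrays detected, at a detection p under 0.05. These were 8335 genes, out of 15958 autosomal genes and 16593 genes of any chromosome on the array. The 264 X-linked and 3 Y-linked genes that passed the same filter were left out. Among autosomal probes, 452 were detected on exactly 2 arrays and so were just inside the filter, and 663 on exactly 1 array were just outside it.

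The KH2 line contributed 2 arrays, 1 of untreated cells and 1 of cells given doxycycline at 1 µg/mL for 5 days. The Sox17-inducible cells contributed 4 arrays, an untreated and a doxycycline-treated array for each of 2 lines. The labels call one of these line 2, and the line whose label has no number is called line 1 here. All cells were kept for 5 days in medium with serum and LIF, without feeder cells. The labels do not say whether the inducible lines were made from KH2, at which passage any line was taken, or whether each is a single clone. Every KH2 array is therefore a sample of 1 line, and the comparison is of 1 line with 2 lines: p-values measure the spread between arrays and cannot say how KH2 would compare with other control lines. In the treated arrays the line difference also holds whatever induced Sox17 does, and these cannot be told apart there.

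Embryonic stem cells are derived from the pluripotent cells of the early embryo, and LIF and serum keep them dividing without differentiation. A culture is not uniform: some cells resemble the naive epiblast, others move towards the primed epiblast that precedes gastrulation, and a few carry genes of the primitive streak or of epithelia. Wnt signals through beta-catenin and TCF factors turn on targets such as Sp5, Axin2 and Cdx1, while FGF signals favour the primed state. Independent lines of one origin commonly differ in such genes, in imprinted genes and in chromosome content. The bulk arrays used here cannot tell more cells of a kind from more RNA per cell.

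The culture was checked against defining markers. All 12 embryonic stem cell markers listed were detected on all 6 arrays, and 4 were higher and 8 lower in KH2, with a median difference of -0.16 on the log2 scale. None of them passed the test. Pou5f1, which encodes the pluripotency factor Oct4, read 13.01 and 13.06 on the KH2 arrays and 13.28 to 13.48 on the inducible arrays, and Nanog read 12.30 on both KH2 arrays and 11.96 to 12.35 on the others. The level of Sox17 itself could be checked only in part. Of its 2 probes, one was detected on the treated array of line 2 alone, at 6.47, and the other on no array, and what these probes cover of the transgene's transcript is not given in the sources used here.

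The arrays differed little in depth. Between 11219 (treated KH2) and 11957 (untreated line 1) of 25697 probes were detected. With 6 arrays, precision is limited by their number. Arrays did not all group by line. Across the tested autosomal genes, 3 of the 6 arrays correlated more with an array of another line than with the other array of their own. Untreated KH2 and untreated line 1 correlated at 0.987 with each other and each at 0.984 with its own treated array, and treated line 1 correlated at 0.986 with untreated line 2.

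A single autosomal gene passed the test of KH2 against the inducible lines. Fgf8, a growth factor gene of the primitive streak and of primed epiblast cells, read 7.08 on the untreated and 7.0 on the treated KH2 array. It read 5.39 and 4.79 on the untreated and treated arrays of line 1, and 5.12 and 4.88 on those of line 2. Both KH2 arrays were thus well above the other 4, on none of which Fgf8 was detected. The fitted difference was 2.00 ± 0.18 (SE; limma with doxycycline as a covariate, 2 against 4 arrays, adjusted p = 0.0195), and against the detection limit KH2 was at least 2.58-fold higher. Fgf8 passed the detection filter only through KH2, so some difference was built into its inclusion.

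That call is 0.0120% of the genes tested, and 0% were called lower in KH2, where 938 genes had an unadjusted p under 0.05. The call was lost without either KH2 array, without either array of line 2, with 1 mean per line, with raw signal or with no detection filter. Left without the untreated array of line 1, the fit called 27 genes higher (0.324%) and 26 lower (0.312%) in KH2, Fgf8 among them. With line as a replicate block, that is with a fixed mean for each line, it called 77 genes higher (0.924%) and 48 lower (0.576%) in KH2, Fgf8 again among them. That fit takes its error only from the 2 arrays within a line. In the same fit line 2 differed from line 1 at 158 genes (1.90%).

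KH2 was about as far from the inducible lines as they were from each other. With each line as the mean of its 2 arrays, the SD of the difference over all 8335 genes was 0.38 between KH2 and line 1, 0.39 between KH2 and line 2, and 0.37 between line 2 and line 1. At least 2-fold differences were found at 151, 191 and 147 genes in the same order.

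A size rule was used beside the test. The 2 KH2 arrays lay above all 4 inducible arrays for 969 genes (11.6%) and below them for 686 genes (8.23%). With a difference of at least 2-fold as well, 53 genes (0.636%) were higher in KH2 and 19 (0.228%) were lower. The split was less one-sided with the authors' processed values, at 74 higher and 47 lower, and without the untreated array of line 1, at 78 and 80. Without the untreated KH2 array it was 142 and 121, and without the treated array of line 1 it was 35 and 20. The median difference over all genes was 0.003. Apart from Fgf8, no autosomal gene described from here on passed the test of KH2 against the inducible lines without a block, and the adjusted p-values given with the differences are from that test. The call of many of them depends on the block. A fixed mean per line called 48 further genes of the 105 named, against 0.924% of all genes higher and 0.576% lower. Many of the 105 were named for their large differences, so a high share was built in. Line as a random block called none of the 48, and 1 mean per line called no gene, with 496 at an unadjusted p under 0.05. The adjusted p with a fixed mean per line is given below as the line-block adjusted p, where it changes the call. That p leaves out the spread between lines. It stayed above 0.05 for Krt7 (0.0581), Cdx1 (0.0603) and Otx2 (0.0835).

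**Figure D1:**
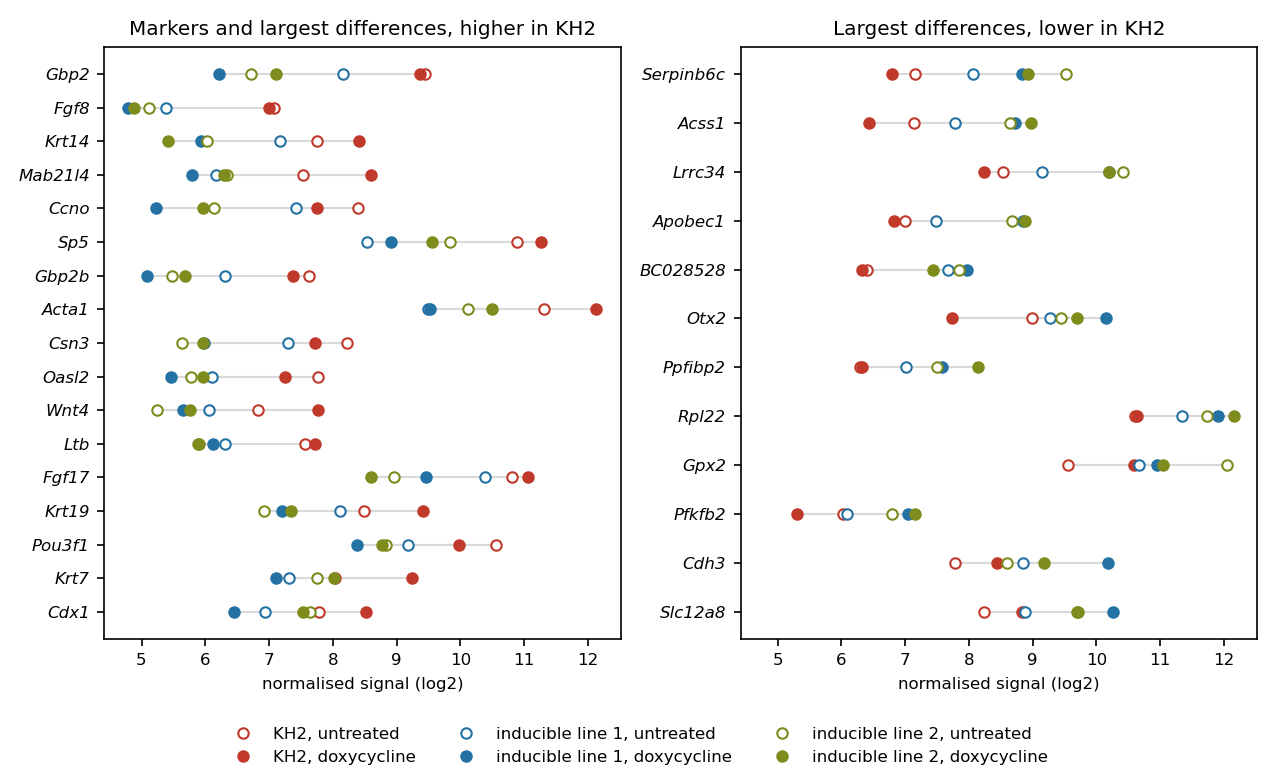
Normalised signal on the log2 scale for the markers and, among genes detected in both groups and without overlap, the 12 largest differences in each direction, 1 point per array, with open circles for untreated and filled circles for doxycycline-treated cells. Each gene was read by 1 probe. Red KH2 points lie to the right of all others in the left panel and to the left of all others in the right panel, by small gaps for genes such as Cdx1 and Pfkfb2 and by more than 1 log2 unit for Fgf8 and Gbp2.

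Among genes detected in both groups, the largest difference was that of Gbp2. It encodes a guanylate-binding protein of cell defence that interferons induce, and it read 9.45 and 9.36 on the untreated and treated KH2 arrays. It read 8.17 and 6.22 on those of line 1, and 6.72 and 7.11 on those of line 2. The untreated array of line 1 was closest to KH2, and the groups did not overlap (2.35 ± 0.41, 5.11-fold, adjusted p = 0.211, line-block adjusted p = 0.0189).

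Gbp2b, its neighbour in the same family, read 7.62 and 7.37 in KH2, 6.32 and 5.08 in line 1 and 5.47 and 5.69 in line 2 (1.86 ± 0.28, adjusted p = 0.116, line-block adjusted p = 0.0117). Probes of 2 such related genes may bind each other's transcripts, which was not tested. Oasl2, an oligoadenylate synthetase-like gene, read 7.77 and 7.25 in KH2 against 5.47 to 6.11 in the inducible lines (1.68 ± 0.21, adjusted p = 0.0794, line-block adjusted p = 0.00783). Of 11 tested members of the interferon list 8 were higher in KH2, with a list median of 0.33. Above all inducible arrays were 5, Gbp2, Oasl2, Irf1, Ifitm1 and Isg15, against 11.6% of all genes. Irf1, a transcription factor of the response, differed by 0.66 and Isg15, a ubiquitin-like modifier, by 0.53, while Stat2 and Irf9, which carry the type I interferon signal, differed by -0.29 and -0.13.

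Promoter sequence was inspected because several interferon-induced genes, and the Wnt targets described further on, were higher in KH2 together. The 250 bases before the annotated start were searched on both strands for 2 copies of GAAA with any 2 bases between them, a core of the interferon-stimulated response element. The letters were found before Gbp2, Gbp2b and Isg15 and not in the windows of Oasl2 and Irf1. For the Wnt targets, CTTTGAT, one form of the TCF site, was searched. The letters were found before Sp5 and in 1 of 2 windows of Tnfrsf19, and not in that of Axin2; Notum, Myc, Ccnd1 and Cdx1 had no window to search. Of 32851 annotated windows of this length, 2.98% hold the first motif and 3.21% the second. The sequences are from RefSeq (GRCm38.p6), 5′ to 3′ towards the start of the gene, with the motif matches in capitals; 3 overlapping matches make up the run of capitals in Isg15. They lie at chr3:142620413-142620662 (plus strand) for Gbp2, chr3:142594597-142594846 (plus) for Gbp2b, chr4:156200819-156201068 (minus) for Isg15 and chr2:70474673-70474922 (plus) for Sp5.
Gbp2: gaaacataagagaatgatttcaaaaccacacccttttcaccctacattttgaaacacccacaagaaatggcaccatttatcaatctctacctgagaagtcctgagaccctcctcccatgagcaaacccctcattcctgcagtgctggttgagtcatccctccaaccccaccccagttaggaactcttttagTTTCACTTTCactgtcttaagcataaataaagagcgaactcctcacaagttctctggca
Gbp2b: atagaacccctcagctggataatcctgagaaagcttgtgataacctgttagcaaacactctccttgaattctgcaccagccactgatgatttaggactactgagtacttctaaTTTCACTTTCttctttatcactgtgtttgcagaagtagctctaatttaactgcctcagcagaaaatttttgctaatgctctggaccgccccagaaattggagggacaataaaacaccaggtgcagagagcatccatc
Isg15: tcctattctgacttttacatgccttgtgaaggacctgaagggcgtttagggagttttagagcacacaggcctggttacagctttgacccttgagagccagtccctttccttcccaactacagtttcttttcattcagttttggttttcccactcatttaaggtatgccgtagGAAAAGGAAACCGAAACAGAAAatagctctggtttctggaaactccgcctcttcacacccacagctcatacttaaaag
Sp5: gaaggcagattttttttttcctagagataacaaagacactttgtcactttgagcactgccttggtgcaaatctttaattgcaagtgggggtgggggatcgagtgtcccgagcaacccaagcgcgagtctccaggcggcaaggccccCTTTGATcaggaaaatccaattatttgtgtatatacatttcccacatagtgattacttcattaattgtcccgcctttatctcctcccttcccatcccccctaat

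Genes of antigen presentation, which interferon also induces, were read as a separate list. Of 11 tested members 9 were higher in KH2, 4 of them above all inducible arrays, against 11.6% of all genes. The median was 0.33, and it was 0.03 without doxycycline and 0.34 with it. Psmb9, an immunoproteasome subunit, differed by 0.50 and H2-T23, a class Ib molecule, by 0.59, and B2m, the light chain that all class I molecules share, by 0.14. Ltb, which encodes lymphotoxin beta, a membrane-bound cytokine of the tumour necrosis factor family, read 7.56 and 7.71 in KH2 and 5.88 to 6.31 in the inducible lines (1.59 ± 0.19, adjusted p = 0.0794, line-block adjusted p = 0.00339).

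Growth factors of the FGF and Wnt families were among the genes with the largest differences. Fgf17, of the same FGF subfamily as Fgf8, read 10.81 and 11.06 in KH2, 10.40 and 9.46 in line 1 and 8.97 and 8.60 in line 2 (1.58 ± 0.42, adjusted p = 0.285, line-block adjusted p = 0.0151). The untreated array of line 1 was 0.41 below untreated KH2, and line 1 was itself above line 2. Fgf4, another FGF of these cells, did not separate the lines (0.11 ± 0.25). Wnt4 read 6.82 and 7.77 in KH2, 6.06 and 5.64 in line 1 and 5.24 and 5.76 in line 2 (1.62 ± 0.28, adjusted p = 0.211, line-block adjusted p = 0.0186).

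Wnt7a was detected on both KH2 arrays, at 6.41 and 7.49, and on no inducible array, which makes it at least 2.42-fold higher (adjusted p = 0.252, line-block adjusted p = 0.0329). It was included only through KH2, so some difference was built into its inclusion. Wnt6 and the receptor Fzd10, named after their values were seen, differed by 1.20 and 1.05, and both were above all inducible arrays. Fzd7, a receptor of the same family, went the other way. It differed by -0.87 and was below all inducible arrays (line-block adjusted p = 0.0405). Wnt3a, which acts in the primitive streak, read 6.61 and 7.10 in KH2 and 6.23 to 7.27 in the others and overlapped. Sfrp2, a secreted Wnt antagonist, was also higher in KH2 (0.91 ± 0.19, adjusted p = 0.252, line-block adjusted p = 0.0405).

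All 7 tested autosomal genes of the Wnt target list were above all 4 inducible arrays on both KH2 arrays, against 11.6% of all genes. The list median was 0.78, with 0.70 in untreated and 0.78 in treated cells. Sp5, a zinc-finger factor and direct target of beta-catenin, read 10.90 and 11.27 in KH2, 8.54 and 8.91 in line 1 and 9.84 and 9.56 in line 2. Line 2 was between KH2 and line 1, and the difference was 1.87 ± 0.35 (adjusted p = 0.248, line-block adjusted p = 0.00339). Axin2, the feedback inhibitor of the pathway, read 7.95 and 8.01 in KH2 and 6.99 to 7.47 in the others (0.78 ± 0.19).

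Notum, which inactivates Wnt proteins, differed by 0.47, the receptor gene Tnfrsf19 by 0.95, Myc by 0.73 and Ccnd1, a cyclin of the G1 phase, by 0.38. Cdx1, a homeobox gene of the caudal embryo, read 7.79 and 8.52 in KH2, 6.94 and 6.45 in line 1 and 7.64 and 7.54 in line 2. Untreated KH2 was only slightly above line 2, and the difference of 1.01 ± 0.36 had an adjusted p of 0.386. Of the 18 genes on the list, 16 were on the array and 9 of those were not tested.

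Members of the primed epiblast list ran in opposite directions. Pou3f1, a POU factor of the primed epiblast also known as Oct6, read 10.56 and 9.97 in KH2 and 8.39 to 9.18 in the inducible lines (1.47 ± 0.20, 2.78-fold, adjusted p = 0.0915, line-block adjusted p = 0.00998). Otx2, a homeobox factor that also marks the move to the primed state, ran the other way. It read 8.99 in untreated and 7.73 in treated KH2, 9.27 and 10.15 in line 1 and 9.44 and 9.69 in line 2 (-1.28 ± 0.37, adjusted p = 0.317). Most of that difference was in the treated cells, at -2.19 against -0.37 without the drug.

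Of the 12 tested autosomal members of this list 10 were higher and 5 above all inducible arrays, against 11.6% of all genes. The median was 0.42, and Fgf8 was included only through KH2. Nodal, the TGF-beta family ligand that patterns the epiblast, read 9.40 and 9.38 in KH2 and 8.69 to 8.94 in the others (0.57 ± 0.17, adjusted p = 0.337), and its coreceptor Tdgf1 differed by 0.59. The Nodal inhibitors Lefty1 and Lefty2 differed between the inducible lines by more than KH2 differed from the mean of those lines. Lefty2 read 10.72 and 9.80 in KH2, 10.75 and 9.41 in line 1 and 8.47 and 7.45 in line 2. For Lefty2, KH2 was thus near line 1, and line 2 stood apart. The line-block adjusted p-values of Lefty1 and Lefty2, for KH2 against the mean of both lines, were 0.0226 and 0.0124. Gsc, a homeobox gene of the anterior primitive streak, was detected on both KH2 arrays, at 6.25 and 6.21, and on no other, which makes it at least 1.47-fold higher (line-block adjusted p = 0.0369). In the mesendoderm and primitive streak list 6 of 7 tested members were higher, but 2 of them, Fgf8 and Gsc, were included only through KH2, and 12 further members on the array, among them Mixl1, Eomes and Cer1, were detected on at most 1 array.

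Naive-state genes leaned the other way, by little. Of 18 tested members 13 were lower in KH2 and 3 below all inducible arrays, against 8.23% of all genes. The median was -0.19, and none passed the test. Esrrb, a nuclear receptor of naive cells, read 13.20 and 13.39 in KH2 and 13.64 to 14.08 in the inducible lines (-0.57 ± 0.17, adjusted p = 0.331). Zfp42, also called Rex1, read 11.06 and 10.56 in KH2, 11.82 and 11.86 in line 1 and 11.02 and 10.75 in line 2, so that only line 1 stood apart. Zfp42 is on chromosome 8.

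Of 6 tested keratins of simple epithelia 5 were higher in KH2 and 1 was lower, with a list median of 1.24. Above all inducible arrays were 4 of them, against 11.6% of all genes. Krt20 differed by 0.53 and Krt80 by -0.04, and both overlapped the inducible arrays. Krt8 and Krt18, which pair to form the first intermediate filaments of the embryo, read 13.25 and 13.93, and 11.63 and 12.61, in KH2. In the inducible lines Krt8 read 11.55 to 12.89 and Krt18 9.80 to 11.56, with line 2 above line 1 for both. The differences were 1.38 ± 0.36 and 1.43 ± 0.46 (adjusted p = 0.285 and 0.358, line-block adjusted p = 0.0226 and 0.0376).

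Krt19 read 8.49 and 9.42 in KH2, 8.11 and 7.20 in line 1 and 6.91 and 7.35 in line 2 (1.56 ± 0.36, adjusted p = 0.272, line-block adjusted p = 0.0393). Krt7 read 8.04 and 9.24 in KH2, 7.31 and 7.11 in line 1 and 7.75 and 8.02 in line 2 (1.10 ± 0.33, adjusted p = 0.338). For these 4 keratins the treated KH2 array was the highest of the 6 by at least 0.69, and the untreated KH2 array was above the highest inducible array by 0.02 (Krt7) to 0.38 (Krt19). Krt14, a keratin of stratified epithelia, read 7.76 and 8.42 in KH2, 7.18 and 5.94 in line 1 and 6.02 and 5.41 in line 2 (1.95 ± 0.41, adjusted p = 0.252, line-block adjusted p = 0.0189).

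Junction genes had smaller differences than the keratins. Of 15 tested members 12 were higher in KH2 and 3 lower. The median was 0.24, and 4 were above all inducible arrays, against 11.6% of all genes. E-cadherin, Cdh1, differed by 0.10 ± 0.20. P-cadherin, Cdh3, was lower in KH2, at 7.78 and 8.44 against 8.60 to 10.19 (-1.09 ± 0.28, adjusted p = 0.285, line-block adjusted p = 0.0329). The claudin genes Cldn6 and Cldn7 were higher by 0.63 and 0.81. Of the trophoblast list, 10 of 12 tested members were higher with a median of 0.50, but its 4 largest were the keratins named above. Cdx2, Eomes, Elf5, Gata3 and Hand1, which define that lineage, were each detected on at most 1 array. Summed over the list, linear signal was 31499 and 39837 on the KH2 arrays and 14984 to 23510 on the inducible arrays. The sum includes those keratins and so in part repeats their difference. The part of such cells in the keratin difference was not tested.

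Actins of muscle and other contractile genes were higher in KH2 as well. Acta1, skeletal muscle actin, read 11.31 and 12.13 in KH2, 9.49 and 9.53 in line 1 and 10.12 and 10.49 in line 2 (1.81 ± 0.31, adjusted p = 0.211, line-block adjusted p = 0.00339). Actc1, cardiac actin, was detected on the KH2 arrays alone, at 6.17 and 6.75, was included only through them and was at least 1.73-fold higher (adjusted p = 0.108, line-block adjusted p = 0.0115). Actg2, an enteric smooth muscle actin, read 8.13 and 8.88 in KH2 and 6.27 to 7.81 in the others (1.29 ± 0.41, line-block adjusted p = 0.0186), and Acta2, vascular smooth muscle actin, did not separate the groups (0.37 ± 0.45).

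All 15 tested members of the actin and contractile list had a positive difference, with a median of 0.57. Above all inducible arrays were 6, against 11.6% of all genes. Actc1, counted among the 15 and the 6, was included only through KH2, so its place there was in part built in. Line 2 was above line 1 by a median of 0.50 over the same list, so the inducible lines differed in it about as much. Cytoplasmic actin, Actb, was read by 5 probes that did not go together. The brightest differed by 0.13, and 2 probes were lower in KH2 by 1.75 and 1.77, at 9.29 to 9.72 on the KH2 arrays and 10.02 to 12.16 on the others. Actin transcripts are alike in sequence, and binding of one to another's probe was not tested. The 2 probes of Gapdh differed by 0.05 and -0.07.

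Fibroblast and feeder cell genes were read because it shares contractile genes. Of 10 tested members 9 were higher in KH2, with a median of 0.28. Twist2, a mesenchymal bHLH factor, read 6.93 and 7.13 in KH2 and 5.21 to 6.01 in the inducible lines (1.31 ± 0.25, adjusted p = 0.248, line-block adjusted p = 0.0146). Col1a2, Col3a1, Lum, Dcn, Postn and Pdgfrb, which define fibroblasts, were each detected on at most 1 array. The summed linear signal of the 10 was 15967 and 19955 on the KH2 arrays and 7107 to 27552 on the inducible arrays, so the groups overlapped.

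**Figure D2:**
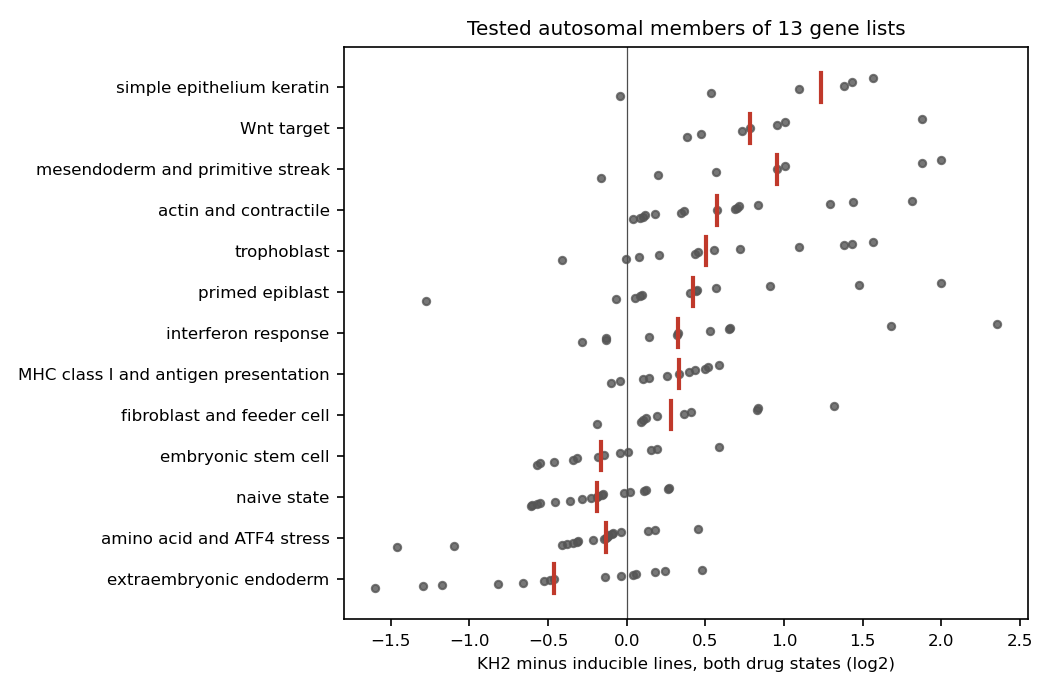
Difference between KH2 and the inducible lines, with doxycycline as a covariate, for each tested autosomal member of 13 gene lists (points) and the list's median (red bar). Keratin, Wnt target and mesendoderm lists have medians of 0.78 to 1.24. The embryonic stem cell, naive, stress and extraembryonic endoderm lists have medians of -0.13 to -0.46. Of the 7 mesendoderm members 2, Fgf8 and Gsc, were included only through KH2, and the median of that list, 0.95, is the difference of Gsc.

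Several further genes above the inducible arrays belong to no list. Mab21l4 read 7.54 and 8.60 in KH2 and 5.79 to 6.33 in the others (1.92 ± 0.29, adjusted p = 0.131, line-block adjusted p = 0.0115). Ccno, a cyclin-like gene needed for multiciliated cells, and Csn3, which encodes kappa-casein, were each higher in KH2 (1.88 ± 0.36 and 1.76 ± 0.39, line-block adjusted p = 0.0285 and 0.0188), and in both the untreated array of line 1 was the closest to KH2, at 7.43 and 7.30. Slpi, a secreted protease inhibitor, was at least 2.44-fold higher, Il33, an alarmin cytokine, at least 1.70-fold and Ppp4r4, a regulatory subunit of protein phosphatase 4, at least 1.57-fold, with no inducible array detected for any of them. Their line-block adjusted p-values were 0.0186, 0.0406 and 0.0247. These genes were included only through KH2, so some difference was built into their inclusion. The neuropeptide gene Gal and the galanin receptor gene Galr2, named after their values were seen, differed by 1.48 and 1.49, and Nt5e, the ectonucleotidase CD73, by 1.54. All 3 were above the inducible arrays. The line-block adjusted p was 0.0115 for Gal, 0.0286 for Galr2 and 0.00930 for Nt5e. In total 28 of the 8335 genes were detected on both KH2 arrays and on no inducible array. On inducible arrays only, 282 genes were detected, which needed any 2 of those 4 arrays under the filter.

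Fewer genes were lower in KH2. Serpinb6c, of a family of serine protease inhibitors, read 7.15 and 6.80 in KH2, 8.06 and 8.83 in line 1 and 9.53 and 8.93 in line 2 (-1.86 ± 0.36, adjusted p = 0.248, line-block adjusted p = 0.0115). Acss1, a mitochondrial acetyl-CoA synthetase, read 7.14 and 6.44 in KH2 and 7.78 to 8.98 in the others (-1.75 ± 0.34, adjusted p = 0.248, line-block adjusted p = 0.0195). Lrrc34, a leucine-rich repeat gene, read 8.53 and 8.24 in KH2 and 9.14 to 10.42 in the others (-1.61 ± 0.34, adjusted p = 0.252, line-block adjusted p = 0.0226).

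Apobec1, the deaminase that edits apolipoprotein B RNA, read 6.99 and 6.83 in KH2, 7.48 on the untreated array of line 1 and 8.67 to 8.89 on the other inducible arrays (-1.56 ± 0.34, line-block adjusted p = 0.0277). For these 4 genes that untreated array was the inducible array closest to KH2. BC028528 was lower by nearly the same amount in both drug states, at -1.36 without and -1.38 with doxycycline (-1.37 ± 0.20, adjusted p = 0.116, line-block adjusted p = 0.0117), and the inducible lines read 7.44 to 7.97 against 6.40 and 6.33. Rpl22, a ribosomal protein gene, read 10.61 and 10.64 in KH2 and 11.35 to 12.15 in the others (-1.16 ± 0.20, adjusted p = 0.212, line-block adjusted p = 0.0186).

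Genes with no detected KH2 array are given by their bounds. KH2 was at least 1.96-fold lower for Prmt8, an arginine methyltransferase, 1.86-fold for Pde8a, a cyclic AMP phosphodiesterase, and 1.85-fold for Sik1, a salt-inducible kinase. The bounds were 1.65-fold for Pdk4, a kinase that shuts down pyruvate dehydrogenase, 1.51-fold for Clec11a and 1.45-fold for Ptprv. The line-block adjusted p was 0.00929 for Prmt8, 0.0248 for Pde8a, 0.0380 for Sik1 and 0.0401 for Ptprv. All 4 inducible arrays detected each of the 6 genes, which were included only through those arrays, so some difference was built in. Of the 8335 genes, 42 were detected on all 4 inducible arrays and on no KH2 array. Cyp4f14, named after its values were seen, had the most negative fitted difference without separating the groups (line-block adjusted p = 0.0320). It read 4.77 and 4.81 in KH2 and 4.74 on the untreated array of line 1, none of them detected, against 7.14 on the treated array of line 1 and 10.23 and 8.90 in line 2.

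The drug states were then compared, to see which differences were there both without and with doxycycline. No array is shared between the untreated and the treated contrast, but the lines, the chip and the probes are. Without doxycycline 42 genes were at least 2-fold higher in KH2 (0.504%) and 34 at least 2-fold lower (0.408%). Of the 42, 41 had the same sign with doxycycline and 25 were again at least 2-fold higher, with a median of 1.41. Of the 34, 33 had the same sign and 17 were again at least 2-fold lower, with a median of -0.996. Over all genes 59.3% had the same sign.

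More genes were apart with doxycycline, 160 higher (1.92%) and 159 lower (1.91%), of which 151 and 142 had the same sign without it. None of the genes passed the test in either state or for the difference between the states. Among autosomal genes limma's smallest adjusted p was 0.9999 without and 0.293 with doxycycline and 0.996 for the difference, and 228, 927 and 224 genes had an unadjusted p under 0.05. Across the 8335 genes the untreated and treated differences correlated with r = 0.43, and the difference between line 2 and line 1 in the same states with r = 0.50. These are descriptions over genes, which are not independent.

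Fgf8 (1.82 and 2.17), Pou3f1 (1.55 and 1.39), Oasl2 (1.84 and 1.53), Ltb (1.47 and 1.70), Csn3 (1.77 and 1.74) and Sp5 (1.71 and 2.04) were examples with similar differences without and with doxycycline. Krt19 (0.98 and 2.15), Krt7 (0.52 and 1.68), Cdx1 (0.49 and 1.52) and Krt14 (1.16 and 2.74) were farther apart with it. Dlk1, an imprinted gene of a Notch-like ligand, read 7.38 and 7.69 in KH2, 7.27 and 5.18 in line 1 and 6.24 and 5.39 in line 2, so that KH2 was 0.62 higher without and 2.41 higher with doxycycline. Gchfr, Lrrc15 and Cachd1 had opposite signs in the states, with KH2 outside both inducible arrays in each. Gchfr, a regulator of GTP cyclohydrolase, read 6.50 in untreated KH2 against 7.10 and 6.66, and 7.47 in treated KH2 against 5.35 and 6.32.

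Medians of some lists moved with the drug. That of the keratins was 0.73 without and 1.70 with doxycycline, and that of extraembryonic endoderm, a tissue in which Sox17 is active, 0.05 and -0.68. The value of 0.05 is the difference of Pdgfra, which no untreated array detected. Of the 15 tested members of the endoderm list, 1 was included only through inducible arrays. Gata6, a factor that directs extraembryonic endoderm, read 6.29 and 6.59 in KH2, 6.25 and 8.43 in line 1 and 7.77 and 9.71 in line 2. Untreated line 1 was at the level of KH2, and untreated line 2 was 1.48 above untreated KH2. Ddit3, a transcription factor of the integrated stress response, read 7.56 and 8.03 in KH2, 7.59 and 9.88 in line 1 and 9.28 and 10.26 in line 2, so that again untreated line 1 was near KH2. Over both states the line-block adjusted p was 0.0401 for Gata6 and 0.0406 for Ddit3.

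**Figure D3:**
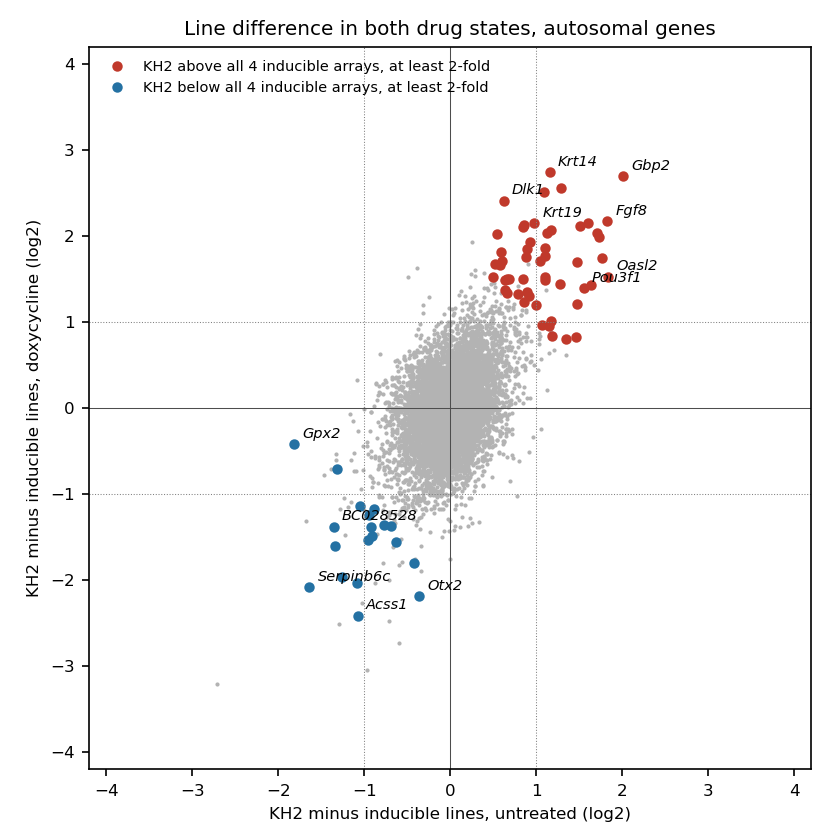
Difference between KH2 and the inducible lines for each of the 8335 genes without doxycycline (x axis) and with it (y axis), on the log2 scale, with dotted lines at 2-fold. The 53 red and 19 blue genes were chosen over all 6 arrays by a rule without overlap, which itself requires the same sign in both states. The red points for Gbp2 and Fgf8 lie near the upper right.

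The genes whose pattern over the 6 arrays was most like that of Fgf8, among 1609 genes with a range of at least 1, were Limd2 (Pearson r = 0.986), Sac3d1 (0.985), Rimkla (0.979), Ltb (0.979) and Gsc (0.974). Those most like Krt19 were Gm8909 (0.990), Tmem59l (0.985), Wnt4 (0.982), H2-Bl (0.973) and Tmprss2 (0.971). Gm8909 and H2-Bl are class I major histocompatibility genes, a family in which probes may bind several members. A correlation over 6 arrays of 3 lines mostly repeats the order of the lines. The line-block adjusted p was 0.0248 for Limd2 and 0.0406 for Rimkla.

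Chromosome 8 set the inducible lines apart from each other and so bears on how far KH2 can be compared with their mean. Over its 470 tested genes the median deviation from the mean of the 6 arrays was 0.24 and 0.27 on the untreated and treated arrays of line 1, -0.07 and -0.04 on those of KH2 and -0.17 and -0.16 on those of line 2. On the other 18 autosomes no array went outside -0.12 to 0.10. Both arrays of line 1 were above all other arrays for 47.2% of the genes on chromosome 8, and for 5.44% to 10.7% on the other autosomes. The median of KH2 minus line 1 was -0.33 and that of KH2 minus line 2 was 0.08. Of the genes named above, Acta1, Cdh1, Cdh3, Tmem59l and Zfp42 are on this chromosome. DNA copy number was not measured.

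**Figure D4:**
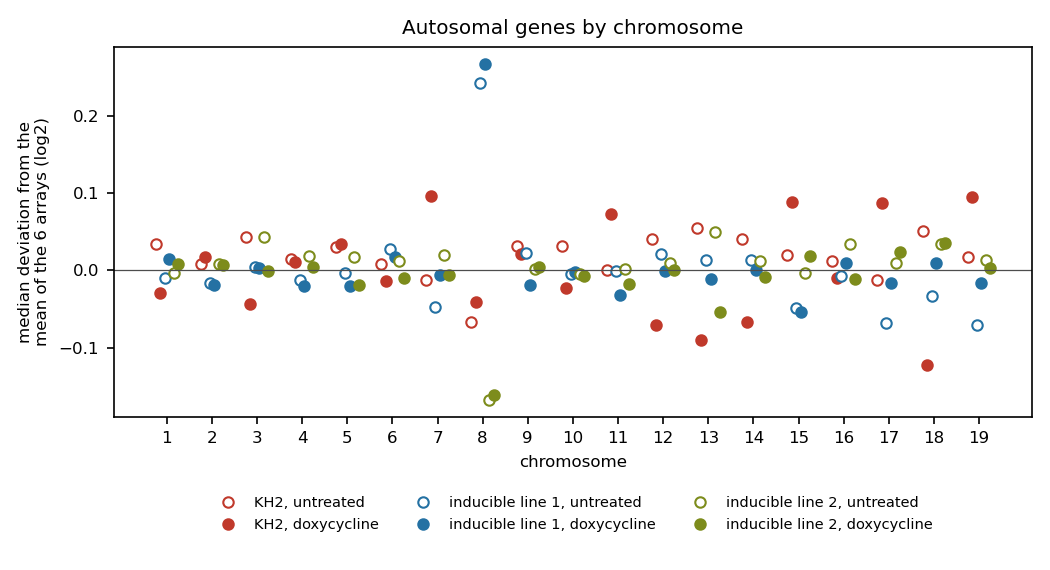
Median over the tested genes of each autosome of the deviation of each array from the mean of the 6 arrays, on the log2 scale, with 1 point per array. On chromosome 8 the arrays of line 1 are at 0.24 and 0.27 and those of line 2 at -0.17 and -0.16, and the KH2 arrays lie between them.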

How the data were processed

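Total RNA of 6 mouse embryonic stem cell cultures was read on Illumina MouseRef-8 v2 bead arrays, all on 1 chip, so that no chip batch could be separated. The deposited raw table holds, per the file headers, each probe's mean bead signal and its standard error as intensity on a linear scale, the count of beads, and a detection p-value. The other deposited table gives intensity as the authors processed it in BeadStudio, per the submitters' processing notes, with the version and the method not given in the sources used here. The members and the gene lists were chosen with earlier results of these data known.

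Raw signal was background-corrected with the normexp model, using a background inferred from the detection p-values and an offset of 16, quantile-normalised and set on the log2 scale (neqc, limma 3.58.1, R 4.3.3). Of 25697 probes, 12373 were tested, all together; p-values were adjusted over them (Benjamini-Hochberg, threshold 0.05), and autosomal rows are reported. Where several probes of a gene were tested, as for 2141 autosomal genes, the brightest stood for it. Symbols and chromosomes come from a RefSeq table matched by Entrez number. No genome build is given for the probes in the sources used here. The 11 numbers that had no match and the 1719 probes without a gene name were not used as genes.

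Differences are KH2 minus inducible lines, from lmFit and eBayes with doxycycline as a covariate (3 residual degrees of freedom). Drug states were read from a fit of 4 group means, whose 2 residual degrees of freedom come from the inducible lines alone; the variance of a lone KH2 array was taken to equal theirs. For genes detected on no array of one group, the bound sets that group at each array's lowest detected signal. Arrays of a line were taken as paired because the labels name the line. The deviations of line 2 from line 1 without and with doxycycline correlated with r = 0.50 over 8335 genes. Fits were tested on simulated data with known KH2 differences, independent arrays, no difference between the inducible lines and no drug response. Such data cannot show how the calls hold where arrays of a line are alike.

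Genes are named by rule: the markers Fgf8, Pou3f1, Krt19, Krt7 and Cdx1; the 12 largest differences in each direction without overlap among genes detected in both groups; among genes detected on no array of one group, the 6 largest bounds in each direction; the largest members of each list and those discussed for a role; Sox17 and reference genes; the 6 largest differences between drug states; and the 5 genes most like Fgf8 and Krt19. Alternatives covered background correction, the authors' values, the detection filter, variance moderation, the tested features, the probe rule, the line block, the unit of replication, size thresholds and leaving out each array.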

Additional observations from a re-analysis of the deposited data

Results flagged for a closer look

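The 4 inducible arrays were checked for one array far from the other 3 in each of 105 named genes, by the gap to the nearest array as a share of the range; chance alone flags about 1 gene in 20. It was found in 3. For Apobec1 (0.850) and Nupr1 (0.915) the low array was untreated line 1. Apobec1 read 7.48 there and 8.67 to 8.89 on the others, and Nupr1 read 10.50 against 11.72 to 11.83 (line-block adjusted p = 0.0449). For Actc1 (0.938) the high array was untreated line 2, at 5.14 against 4.98 to 4.99, none of them detected.

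In 4 of the named genes KH2 lay on opposite sides of both inducible arrays in the drug states. Gchfr, Lrrc15 and Cachd1 were named for a large difference between drug states with KH2 outside both inducible arrays in each. Their flag was thus in part built into their choice, and the share over all genes was not counted. The difference with doxycycline minus that without was 2.02 for Gchfr, -1.80 for Lrrc15, -1.59 for Cachd1 and -1.42 for Pdgfra. The test of that difference, with limma over all probes, had an adjusted p of 0.996 for each. Pdgfra read 4.91 to 4.97 on all untreated arrays, where it was not detected, so values without the drug are below detection. It read 4.99 in treated KH2 and 6.01 and 6.71 in the treated inducible lines.

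Outside the autosomes, the Y-linked gene Eif2s3y, which encodes a subunit of a translation initiation factor, was detected on both KH2 arrays and on no inducible array. It read 7.91 and 6.97 in KH2 and 4.70 to 4.94 in the others, a fitted difference of 2.67 (limma, adjusted p = 0.0195) and at least 3.41-fold. Eif2s3y passed the detection filter only through KH2, so some difference was built in. Uty, another Y-linked gene, was detected on all 6 arrays, at 6.39 to 7.14. No probe of Xist was detected on any array. The cause of the Eif2s3y difference was not tested.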

How the results depend on the processing

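The count of 1 autosomal gene called between KH2 and the inducible lines became 3 with the authors' processed values, 2 with no doxycycline term, and 0 with raw signal, with no detection filter, with detection on all 6 arrays, or with 1 mean per line. Leaving out single arrays gave 0 to 53. The paired analysis, with a replicate block by line, gave 125 with a fixed mean per line and 1 with line as a random block (correlation 0.136); it left the difference between drug states at 0. Without the drug, with the drug and for their difference the count was 0 under every alternative run, 0 to 0 when single arrays were left out. The random block could not be fitted for the separate drug states, since 6 arrays with 4 means leave no estimate of the correlation; states that lacked their KH2 array have no value. Genes apart by 2-fold without overlap, 53 higher and 19 lower, became 20 and 7 with raw signal, 74 and 47 with the authors' values, 33 and 14 when detected on all 6 arrays, 236 and 156 at 1.5-fold and 13 and 3 at 3-fold. They became 35 to 142 and 20 to 121 when single arrays were left out, and 51 and 17 without chromosome 8, which was chosen after seeing the data. The correlation of 0.43 between the drug states was 0.33 by Spearman, 0.42 on genes detected on all 6 arrays, 0.39 with the authors' values and 0.43 without chromosome 8. Of 1751 values of 105 named genes under alternatives, 1657 kept sign and side of the threshold, 81 became called, 48 of them with a fixed mean per line, 7 lost the call, all of Fgf8, and 6 changed sign. Those that changed sign were Lrrc15 with the authors' values (0.011) and without treated line 1 (0.13), and Lrrc15 (0.78), Cachd1 (0.25), Gchfr (-0.38) and Pdgfra (0.053) without treated KH2. Leaving out single arrays moved them between -1.34 and 0.25 (Cachd1), -0.38 and 1.63 (Gchfr), -1.03 and 0.78 (Lrrc15) and -1.37 and 0.053 (Pdgfra). Fgf8 ranged from 1.08 with raw signal to 2.61 with the authors' values. Signal over background limits dim genes: 43.7% to 46.5% of probes were detected on an array.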
